A study of Mus musculus with 6 samples.

Results

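The immediate-early genes described here are 10 genes chosen by symbol: the AP-1 subunit genes Fos, Fosb, Fosl2, Jun, Junb, Jund and Atf3, the zinc finger factor gene Egr1, and the serum-responsive genes Ier2 and Btg2. All 10 symbols were present among the 23284 gene symbols counted, and all 10 had enough reads to be tested, among 13039 genes tested. The rule names genes by function and uses no measured value, but the genes were chosen with earlier results of these data known. The RNA came from MIN6 cells, an insulin-secreting line derived from a mouse beta cell tumour. PauparKD cells had received an antisense oligonucleotide (ASO) against Paupar, a long noncoding RNA gene next to Pax6, and ControlKD cells had received a control ASO, with 3 libraries in each group. No other treatment, dose or time is given in the labels, and both groups were the same cell line.

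Immediate-early genes are transcribed within minutes of a stimulus, before any new protein is made, and most of their mRNAs and proteins decay quickly. Growth factors, serum, calcium entry and stress act through ERK, JNK and p38 kinases on factors already bound at these genes, such as SRF with its ELK partners and CREB. FOS proteins cannot pair with each other and bind DNA as dimers with JUN proteins, and the dimers are called AP-1. In beta cells, glucose and depolarisation raise Fos, Jun and Egr1 mRNA, and EGR1 can bind the insulin and Pdx1 promoters.

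No immediate-early gene passed the test between PauparKD and ControlKD cells. Egr1 had the largest difference of the 10, at 0.51 of the control level, and the other 9 lay between 0.84 and 1.10 of it. The 3 PauparKD libraries differed from each other instead: replicates 1 and 2 held Egr1 at 0.255 and 0.258 of the control mean, whereas replicate 3 was at 0.996 of it. Replicate 1 was also the lowest library for Fosb, Fosl2, Jun, Jund and Atf3, and replicate 3 was above every control for Fos, Junb, Atf3, Ier2 and Btg2. Such places were common among all tested genes: replicate 1 was below every control for 42.6% and replicate 3 above every control for 37.3%. The spread between libraries was larger in PauparKD than in ControlKD for 84.6% of all tested genes.

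Totals were 16973622 to 23434166 counts in PauparKD and 22463557 to 28693863 in ControlKD libraries, with the smallest total in PauparKD replicate 1. Levels are given as CPM, read counts brought to the same total in every library with TMM (trimmed mean of M-values) factors. Log2 CPM of all tested genes correlated at 0.973 to 0.988 between PauparKD libraries and at 0.996 between ControlKD libraries, so PauparKD libraries stood apart from each other before any gene was singled out. Paupar itself is not among the counted symbols, so the knockdown was not measured here. The 9 beta cell markers, led by Ins2, Chga, Iapp and Ins1, summed to 44120 to 65134 CPM in PauparKD and 39347 to 43376 CPM in ControlKD libraries. Ins1 was at 14318, 6461 and 5239 CPM in PauparKD replicates 1 to 3. Of the 9 markers, 7 had positive log2 fold changes and 2, Neurod1 and Slc2a2, negative ones, and none passed the test. The 7 fibroblast markers summed to at most 1.36 CPM in any library, with Col3a1, Dcn and Lum at 0 in all 6. The 7 immune markers summed to 1.59 to 2.10 CPM in PauparKD and 3.10 to 3.49 CPM in ControlKD libraries, with Ptprc at 0 in all 6. Of the 7, only Cd68 and Lyz2 had enough reads to be tested. Cd68 was lower in PauparKD, with a mean of 1.10 CPM beside 2.46 CPM in ControlKD. Lyz2 was higher, at 0.75 beside 0.60 CPM, and neither passed the test. The 4 endothelial markers summed to at most 1.27 CPM, with Cdh5 at 0 in all 6. Of 6 exocrine and duct markers, Cpa1, Prss2, Pnlip and Amy2a5 were at 0 in all 6 libraries, while the keratin gene Krt7 made up nearly all of a sum of 215 to 328 CPM in PauparKD and 228 to 242 CPM in ControlKD libraries. The other islet hormone genes, mostly Gcg, summed to 41.7 to 127 CPM in PauparKD and 67.4 to 76.7 CPM in ControlKD libraries. What part depth or these markers play in the differences below was not tested.

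Across all tested genes, edgeR's quasi-likelihood test called 5 higher and 1 lower in PauparKD at a p under 0.05 after Benjamini-Hochberg adjustment over all of them, which is 0.0383% and 0.00767% of the 13039 genes. Of the 10 immediate-early genes, 0 were called in either direction, and 0 had an unadjusted p under 0.05, against 17.7% of all tested genes. DESeq2 also called 0 of the 10, while calling 2.05% of its genes higher and 1.72% lower. Limma-voom called 0 of the 10 as well, and gave 1 of them, Egr1, an unadjusted p under 0.05, against 18.4% of all tested genes. Log2 fold changes were positive for 3 of the 10 and negative for 7, with a median of -0.15 beside 0.01 over all tested genes. The groups did not overlap for 0 of the 10, whereas 13.7% of all tested genes were higher and 13.3% lower in PauparKD without overlap. Whether the replicates came from separate cultures is not in the labels, and the p-values therefore refer to variation among libraries that could be technical. In bulk RNA, fewer cells using a gene and less RNA per cell cannot be told apart. A p above the threshold does not show that the groups were alike, so the 95% intervals of the fold changes are given below.

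**Figure D1:**
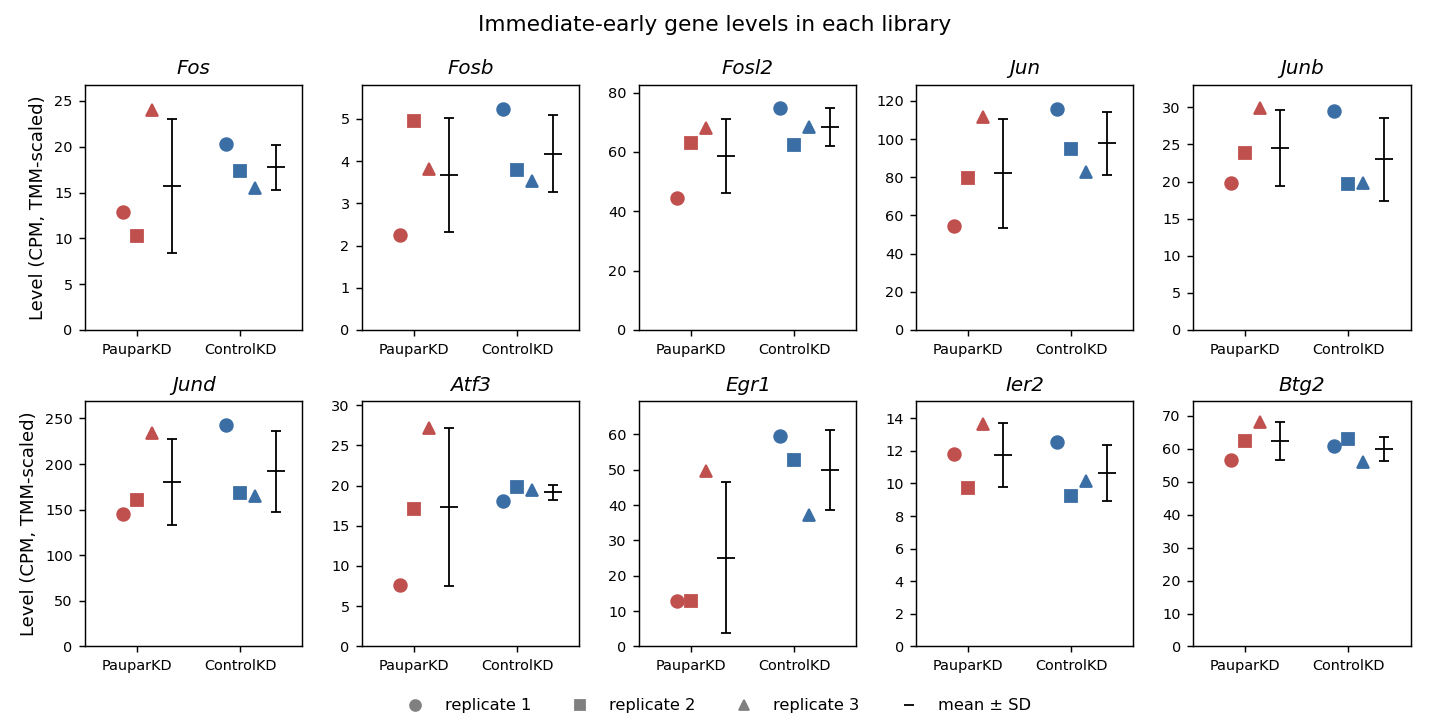
Levels of the 10 immediate-early genes in CPM; each point is 1 library, its shape the replicate number, with the mean and SD of the 3 libraries beside the points. Egr1 was at 12.7 and 12.9 CPM in PauparKD replicates 1 and 2 and at 49.7 CPM in replicate 3, against 37.3 to 59.6 CPM in ControlKD.

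Fos encodes the founding FOS protein. It was at 12.9, 10.3 and 24.0 CPM in PauparKD replicates 1 to 3 and at 20.3, 17.4 and 15.5 CPM in ControlKD replicates 1 to 3. PauparKD replicates 1 and 2 were below all 3 controls and replicate 3 was above them. The group means were 15.7 ± 7.28 and 17.7 ± 2.42 CPM (PauparKD and ControlKD, SD, n = 3 each), and the log2 fold change was -0.17 with a 95% interval of -0.83 to 0.50 (edgeR adjusted p = 0.789). Without PauparKD replicate 3, Fos was called lower in PauparKD, with a log2 fold change of -0.62 (edgeR adjusted p = 0.0484). Without replicate 2 it was 0.06 (edgeR adjusted p = 0.926). Over the 15 alternatives the adjusted p was 0.0484 to 0.952.

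Fos lies on chromosome 12 of the mm9 assembly (NCBIM37), 86814840 to 86818223, plus strand, and its 4 exons span 2352 bases. The promoter is shown because it carries elements through which this gene is known to respond to cAMP. The element known for its response to serum lies upstream of the stretch shown, and its core is given below. The RefSeq window of 250 bases before to 50 bases after the start (GRCm38.p6, chr12:85473640-85473939, plus strand) reads as follows, with capitals at 2 copies of TGACG, the core of the cAMP response element (CRE), which begin 129 and 66 bases before the start, and at a TATA box, TATAAA, which begins 33 bases before it.
Fos promoter: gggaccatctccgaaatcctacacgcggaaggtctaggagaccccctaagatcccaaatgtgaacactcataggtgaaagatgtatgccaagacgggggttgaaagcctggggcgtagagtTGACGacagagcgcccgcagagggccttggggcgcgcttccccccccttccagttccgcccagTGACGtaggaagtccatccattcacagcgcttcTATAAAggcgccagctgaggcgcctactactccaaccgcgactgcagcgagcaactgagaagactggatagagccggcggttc
Just upstream of that window lies the CArG box, the site of SRF, which forms the core of the serum response element of Fos. It was searched for on both strands in the 500 bases before the annotated start of 22370 protein-coding genes in mm9, of which 2.70% held one. Of the 8 immediate-early genes with a RefSeq promoter window, 2 did, and their sites are shown on the gene's own strand with the CArG box in capitals, at chr12:86814521-86814550 (plus strand) and chr7:19895647-19895676 (minus strand).
Fos, box from 309 bases before the start: cacaggatgtCCATATTAGGacatctgcgt
Fosb, box from 272 bases before the start: tggccgagctCCTTATATGGctaattgcgt
Egr1 and Ier2 are not among these 8 genes, so whether they hold a CArG box is not reported here. These matches describe the letters only, and the differences of Fos and Fosb between groups did not pass the test.

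Fosb, a second FOS gene, had the fewest reads of the 10, with 38 to 101 counts in PauparKD and 89 to 118 in ControlKD libraries. It was at 2.24, 4.94 and 3.82 CPM in PauparKD replicates 1 to 3 and at 5.23, 3.79 and 3.53 CPM in ControlKD replicates 1 to 3. Only PauparKD replicate 1 lay outside the control range, below it. The log2 fold change was -0.17, with a 95% interval of -0.84 to 0.49 (edgeR adjusted p = 0.782), and turned to 0.06 without PauparKD replicate 1 and to 0.01 without ControlKD replicate 1.

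Fosl2 encodes FRA2, a FOS protein without a strong activation domain. It was at 44.5, 62.9 and 68.2 CPM in PauparKD replicates 1 to 3 and at 75.0, 62.2 and 68.4 CPM in ControlKD replicates 1 to 3. PauparKD replicate 1 was below the controls, and replicates 2 and 3 were among them. Its log2 fold change was -0.22, with a 95% interval of -0.59 to 0.14 (edgeR adjusted p = 0.473), and was negative in all 15 alternatives, between -0.35 and -0.07.

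Jun encodes c-JUN, the JUN protein that JNK phosphorylates. It was at 54.7, 79.6 and 112 CPM in PauparKD replicates 1 to 3 and at 116, 94.5 and 82.9 CPM in ControlKD replicates 1 to 3. PauparKD replicates 1 and 2 were below every control, and replicate 3 was within the control range. The log2 fold change was -0.25, with a 95% interval of -0.80 to 0.30 (edgeR adjusted p = 0.604). Without PauparKD replicate 3 it was -0.54 (edgeR adjusted p = 0.0973, unadjusted p = 0.0204), and without replicate 1 it was -0.03.

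Junb encodes a JUN protein that is a weaker activator than c-JUN. It was at 19.8, 23.9 and 29.9 CPM in PauparKD replicates 1 to 3 and at 29.5, 19.6 and 19.9 CPM in ControlKD replicates 1 to 3. The highest PauparKD and the highest ControlKD library were nearly equal, as were the lowest, so the groups covered the same range. PauparKD over ControlKD gave a log2 fold change of 0.10, with a 95% interval of -0.37 to 0.57 (edgeR adjusted p = 0.827), and it was -0.07 without PauparKD replicate 3 and -0.01 without ControlKD replicate 2.

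Jund encodes the JUN protein that is present in most resting cells and is less inducible than the other JUN proteins. It was at 146, 161 and 234 CPM in PauparKD replicates 1 to 3 and at 243, 168 and 165 CPM in ControlKD replicates 1 to 3. PauparKD replicates 1 and 2 were just below the controls and replicate 3 was within their range. The log2 fold change was -0.09, with a 95% interval of -0.58 to 0.39 (edgeR adjusted p = 0.846), and it was 0.03 without PauparKD replicate 1 and 0.11 without ControlKD replicate 1. In mm9, exons of the antisense gene Gm11175 share a block of 543 bases with Jund, and those of BC042782 share 232 bases with Jun. The strand setting of the counting is not given in the sources used here, so reads from those stretches cannot be assigned to a strand.

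Atf3 encodes a bZIP factor induced by stress, which pairs with JUN proteins or with itself and often represses. It was at 7.67, 17.1 and 27.2 CPM in PauparKD replicates 1 to 3 and at 18.1, 19.8 and 19.5 CPM in ControlKD replicates 1 to 3. The controls lay within 1.10-fold of each other, while the highest PauparKD library was 3.55 times the lowest, with replicates 1 and 2 below and replicate 3 above every control. Its log2 fold change was -0.13, with a 95% interval of -0.96 to 0.70 (edgeR adjusted p = 0.873). It was 0.21 without PauparKD replicate 1 and -0.61 without replicate 3, so its direction was set by which PauparKD library entered.

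Egr1 encodes a zinc finger activator and is one of the fastest genes to respond to ERK signalling. It was at 12.7, 12.9 and 49.7 CPM in PauparKD replicates 1 to 3 and at 59.6, 52.7 and 37.3 CPM in ControlKD replicates 1 to 3. PauparKD replicates 1 and 2 were alike and far below every control, and replicate 3 was within the control range. These levels rest on 216, 263 and 1158 counts in PauparKD and on 1346, 1237 and 1069 counts in ControlKD libraries. Counting error alone would give an SD of log2 CPM of about 0.06 in PauparKD and 0.04 in ControlKD, beside 1.13 and 0.35 found. What else set the libraries apart was not tested. The means were 25.1 ± 21.3 and 49.9 ± 11.4 CPM (PauparKD and ControlKD, SD, n = 3 each), and the log2 fold change was -0.98 ± 0.50 (SE), with a 95% interval of -2.12 to 0.16 (edgeR adjusted p = 0.332, unadjusted p = 0.0840). Without PauparKD replicate 3 it was called lower, at -1.96 (edgeR adjusted p = 0.00342), and that was the lowest adjusted p of its 15 alternatives, whose highest was 0.625. Without PauparKD replicate 1 or replicate 2 it was -0.67 each time (edgeR adjusted p = 0.518 and 0.537), and the direction was negative in all 15. Egr1 lies on chromosome 18 of mm9, 35020861 to 35024638, plus strand.

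**Figure D2:**
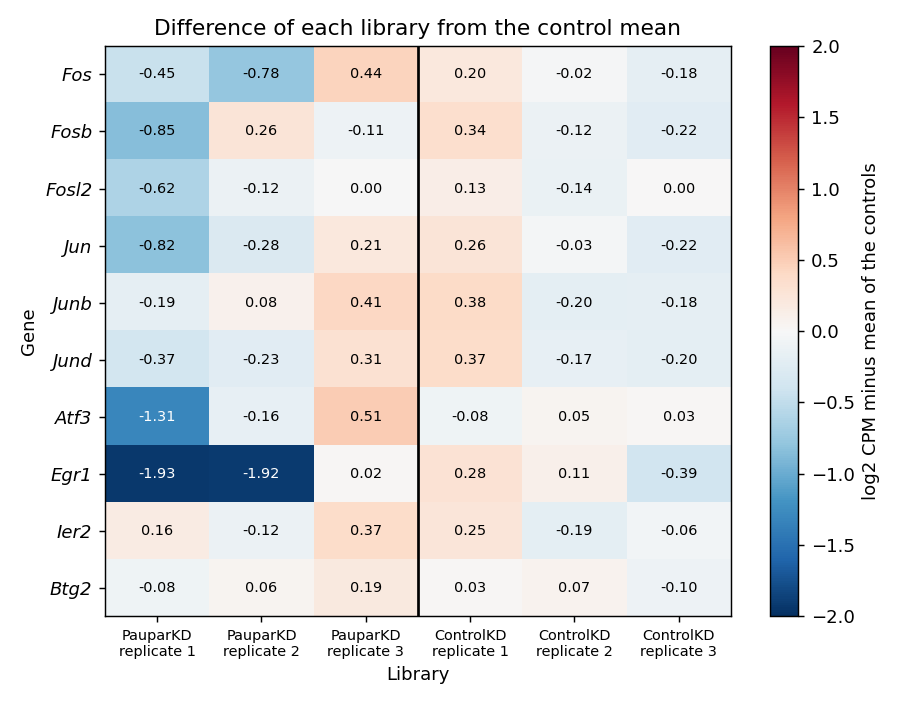
Log2 CPM of each library minus the mean of the 3 ControlKD libraries, for each immediate-early gene (rows) and library (columns); red is above and blue below the control mean. PauparKD replicate 1 was below the control mean for 9 of 10 genes and replicate 3 above it for 8 of 10, while ControlKD replicate 1 was above it for 9 of 10.

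Ier2 encodes a small nuclear protein induced by serum. It was at 11.8, 9.73 and 13.6 CPM in PauparKD replicates 1 to 3 and at 12.5, 9.24 and 10.2 CPM in ControlKD replicates 1 to 3. Only PauparKD replicate 3 lay outside the control range, above it. PauparKD over ControlKD gave a log2 fold change of 0.14, with a 95% interval of -0.25 to 0.53 (edgeR adjusted p = 0.688), and was positive in all 15 alternatives.

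Btg2 encodes an antiproliferative protein that binds the CCR4-NOT deadenylase complex, and it is also a p53 target. It was at 56.5, 62.3 and 68.2 CPM in PauparKD replicates 1 to 3 and at 61.0, 62.9 and 56.0 CPM in ControlKD replicates 1 to 3. Its 6 values were the closest of the 10 genes, and only PauparKD replicate 3 was above the controls. The log2 fold change was 0.06, with the narrowest 95% interval of the 10, -0.17 to 0.29 (edgeR adjusted p = 0.791). Its promoter is shown because Btg2 was the least variable of the 10 genes across PauparKD libraries and because its window was the only one of those searched to hold a full CRE, TGACGTCA, the site of CREB and ATF factors. In the RefSeq window (GRCm38.p6, chr1:134079106-134079405, minus strand) the capitals mark the CRE, which begins 166 bases before the start, and an EGR site, GCGNGGGCG with N any base, which begins 131 bases before it.
Btg2 promoter: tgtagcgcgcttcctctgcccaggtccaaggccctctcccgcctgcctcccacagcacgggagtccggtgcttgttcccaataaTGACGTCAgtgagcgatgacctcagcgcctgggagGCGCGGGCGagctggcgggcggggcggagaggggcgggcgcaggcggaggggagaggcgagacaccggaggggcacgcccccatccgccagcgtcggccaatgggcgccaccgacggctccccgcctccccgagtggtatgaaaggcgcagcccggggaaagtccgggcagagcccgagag
Ier2 and Egr1 had no window in the RefSeq table. In the same search over both strands, a full CRE was in 1.79% of 32851 promoter windows, and the core TGACG, which a full CRE contains on both strands, in 20.8% of all windows and in 5 of the 8 of immediate-early genes (Atf3, Btg2, Fos, Fosb and Junb). EGR sites were in 5.55% of all windows and in 3 of the 8 (Btg2, Fosb and Fosl2), and TATA boxes in 13.6% and in 2 of the 8 (Fos and Junb). The AP-1 site TGAGTCA was in 5.20% of all windows and in 0 of the 8, and the CArG box in 1.63% and in 0 of the 8 at this shorter reach. These matches too describe the letters only, and a link between them and the level or spread of Btg2 was not tested.

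The place of the 10 genes relative to the controls depended on the library. In PauparKD replicates 1 to 3 the median of their log2 differences from the mean control level stood at -0.53, -0.14 and 0.26, and in ControlKD replicates 1 to 3 at 0.25, -0.08 and -0.18. Over all tested genes the same median was between -0.002 and 0.012 in every library. PauparKD replicate 1 was below all 3 controls for 7 of the 10, beside 42.6% of all tested genes. Replicate 2 was below them for 5 of the 10, beside 37.1%, and replicate 3 for 0 of the 10, beside 34.8%. In the other direction, replicates 1 and 2 were above all controls for 0 of the 10, beside 41.9% and 36.6%, and replicate 3 for 5 of the 10, beside 37.3%. These counts describe single libraries, and the 10 genes share each library, so they are not independent.

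The median spread of the 10 genes between libraries of 1 group was larger than that of all tested genes, with exceptions among the 10. The SD of log2 CPM over the 3 PauparKD libraries had a median of 0.44 over the 10 genes and of 0.20 over all tested genes. Over the 3 ControlKD libraries the medians were 0.23 and 0.08. Egr1 had an SD of 1.13 in PauparKD and 0.35 in ControlKD, larger than in 99.3% and 96.2% of the tested genes. Atf3 had an SD of 0.92 in PauparKD, above that of 98.4% of the tested genes, and of 0.07 in ControlKD, above that of 46.2%. Btg2 had an SD of 0.14 in PauparKD, above that of only 29.9% of the tested genes, and of 0.09 in ControlKD, above that of 57.1%. Junb was the only one of the 10 with a smaller SD in PauparKD than in ControlKD, at 0.30 and 0.33. The SD was larger in PauparKD for the other 9 of the 10, beside 84.6% of all tested genes. Counting error alone would give an SD of about 0.17 in PauparKD and 0.14 in ControlKD for Fosb, the gene with the fewest reads, and 0.093 or less for each of the other 9.

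**Figure D3:**
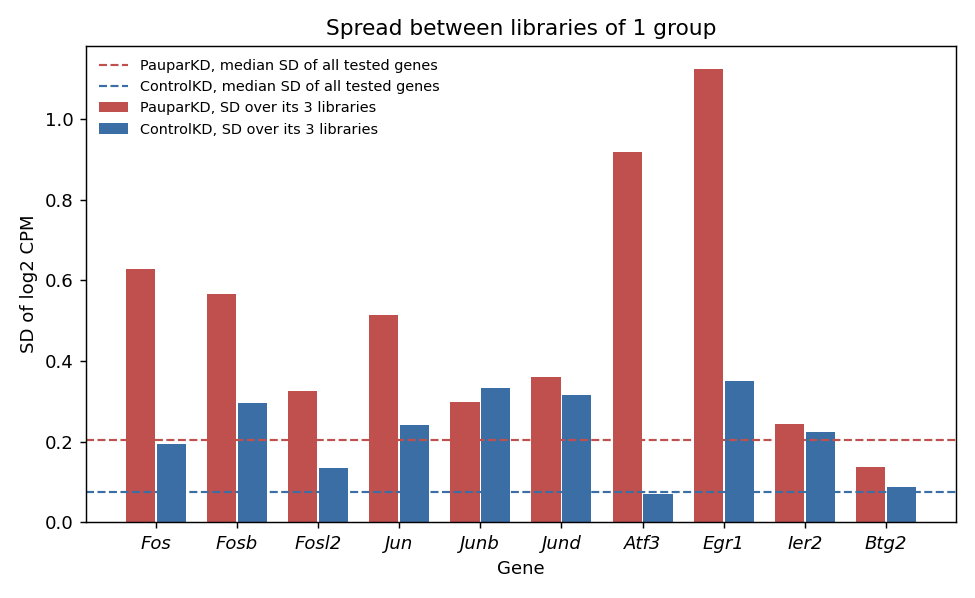
SD of log2 CPM over the 3 PauparKD (left bars) and the 3 ControlKD libraries (right bars) for each immediate-early gene, with dashed lines at the median SD of all tested genes in each group. In PauparKD, 9 of 10 genes had an SD above the 0.20 of all tested genes, and Egr1 and Atf3 stood highest at 1.13 and 0.92.

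Fold changes moved with the libraries that entered. With all 6 libraries 3 of the 10 were positive, while 6 were positive without PauparKD replicate 1, 4 without replicate 2 and 1 without replicate 3. Without PauparKD replicate 3, edgeR called 2 of the 10 lower, Egr1 and Fos, beside 5.67% of all tested genes called lower and 4.65% called higher in that fit. Without PauparKD replicate 1 it called 0 of the 10, beside 0.934% of all genes called higher and 0.972% called lower.

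**Figure D4:**
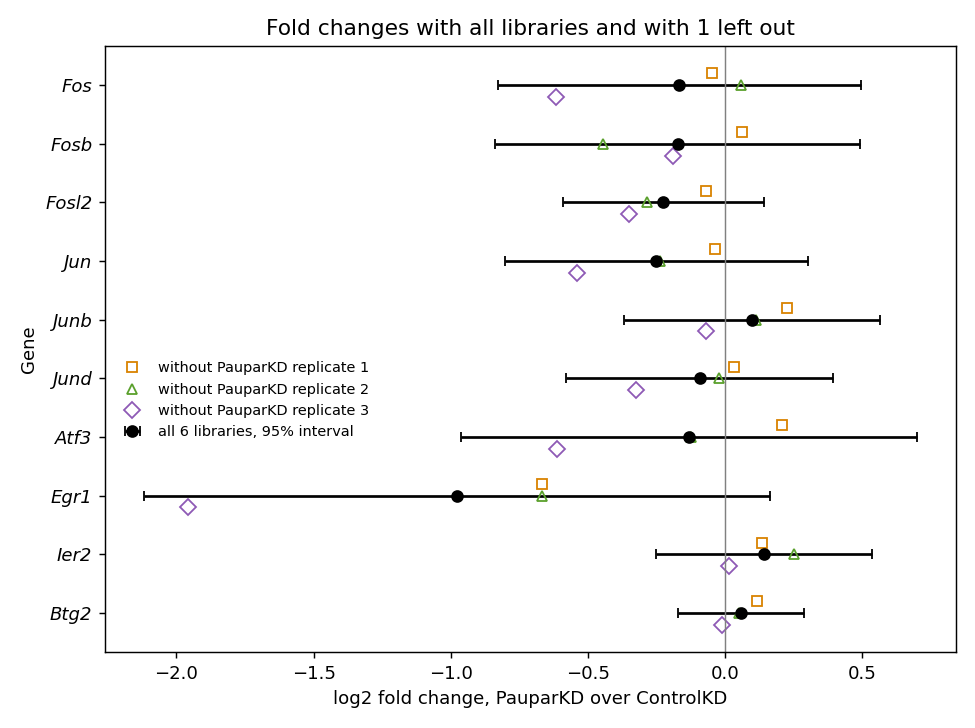
Log2 fold change of PauparKD over ControlKD for each immediate-early gene with all 6 libraries (black, with its 95% interval) and without each PauparKD library (open symbols). All 10 intervals include 0, and leaving out PauparKD replicate 3 moved Egr1 to -1.96 and Fos to -0.62.

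Levels can be set side by side between genes only per length, as CPM per kb of annotated mm9 exon. On this scale Jund was the most abundant of the 10, at 62.5 ± 16.4 in PauparKD and 66.7 ± 15.4 in ControlKD (SD, n = 3 each). Jun followed at 25.7 ± 8.97 and 30.6 ± 5.21, then Btg2 at 22.7 ± 2.14 and 21.9 ± 1.305, and the spread of Jun covered Btg2 in PauparKD. Egr1 was at 8.10 ± 6.87 and 16.1 ± 3.68, and Junb at 13.6 ± 2.82 and 12.7 ± 3.12. Fosl2 lay between 7.60 and 11.7 in PauparKD and between 10.6 and 12.8 in ControlKD libraries, and these 3 neighbours were not apart beyond their spread in either group. Atf3 was at 8.73 ± 4.92 and 9.64 ± 0.47, Fos at 6.69 ± 3.09 and 7.55 ± 1.03, and Ier2 at 7.70 ± 1.29 and 6.99 ± 1.12. Fosb was the lowest, at 0.977 ± 0.36 and 1.11 ± 0.24. The authors' gene annotation is not given in the sources used here, so these lengths may differ from the ones they counted over.

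JUN transcripts outnumbered FOS transcripts in every library. Summed over Jun, Junb and Jund, CPM per kb was 78.7, 94.0 and 133 in PauparKD replicates 1 to 3 and 137, 98.9 and 94.2 in ControlKD replicates 1 to 3. Summed over Fos, Fosb and Fosl2, it was 13.7, 16.4 and 22.9 in PauparKD and 22.8, 19.0 and 19.2 in ControlKD replicates 1 to 3. Both sums were lowest in PauparKD replicate 1, and those of PauparKD replicate 3 and ControlKD replicate 1 were the highest and close to each other. The JUN sum was 5.72 to 5.81 times the FOS sum in PauparKD and 4.90 to 6.003 times in ControlKD libraries. Jund made up 59.4% to 64.3% of the JUN sum in PauparKD and 59.0% to 61.6% in ControlKD. Fosl2 made up 51.0% to 65.4% of the FOS sum in PauparKD and 55.8% to 60.8% in ControlKD, and Fos 26.6% to 44.6% and 34.4% to 38.8%.

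**Figure D5:**
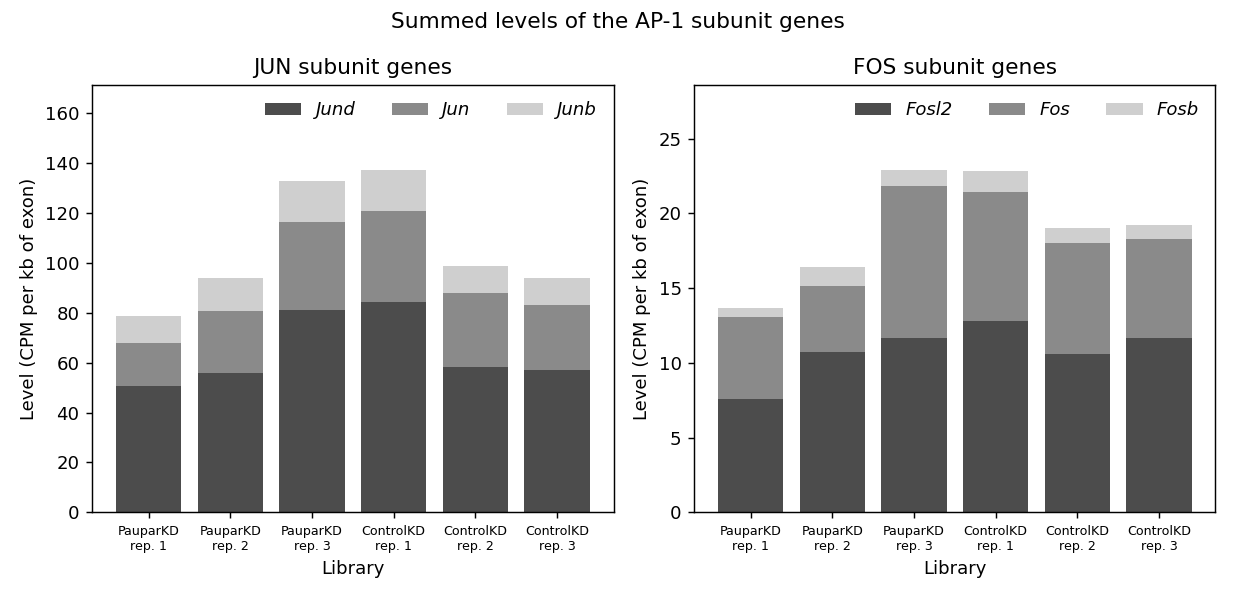
Summed levels of the JUN (left) and FOS (right) subunit genes in each library, in CPM per kb of exon, split by gene. Jund was the largest part of the JUN sum and Fosl2 of the FOS sum in all 6 libraries.

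Other genes of these pathways were taken from 6 lists with 84 entries, of which 68 were tested. edgeR called 0 of them in either direction, and 14, or 20.6%, had an unadjusted p under 0.05, beside 17.7% of all tested genes. Genes named from each list had its smallest p-values, and none of them passed over all genes.

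Of 10 other AP-1 and related bZIP genes, 6 were tested, 4 with positive and 2 with negative log2 fold changes (median 0.15). Maff, a small MAF protein gene, was at 24.6, 20.4 and 23.2 CPM in PauparKD replicates 1 to 3 and at 17.4, 17.5 and 16.4 CPM in ControlKD replicates 1 to 3 (edgeR adjusted p = 0.157). Atf7, a bZIP factor gene related to Atf2, was at 7.90, 8.27 and 7.12 CPM in PauparKD and at 10.6, 9.71 and 9.98 CPM in ControlKD (edgeR adjusted p = 0.208). The groups did not overlap for either gene, which follows in part from their choice by smallest p. Fosl1, the fourth FOS gene, had too few reads to be tested, at 0.245 CPM or less in every library.

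Of 5 other EGR genes and NAB corepressors, only Nab1 and Nab2, which bind EGR proteins and repress them, were tested. Nab2 was at 26.8, 19.1 and 20.3 CPM in PauparKD replicates 1 to 3 and at 16.7 CPM in each ControlKD library (edgeR adjusted p = 0.229). Nab1 was at 37.0, 59.2 and 80.4 CPM in PauparKD and at 62.3, 61.8 and 65.8 CPM in ControlKD (edgeR adjusted p = 0.847). Nab2 was above every control in all 3 PauparKD libraries, as were 13.7% of all tested genes. Nab1 was lowest in PauparKD replicate 1 and highest in replicate 3.

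Of SRF and its 5 listed partners, 5 genes were tested, 2 with positive and 3 with negative log2 fold changes (median -0.09). Elk1, an ERK-activated partner of SRF, was at 38.8, 41.9 and 46.5 CPM in PauparKD replicates 1 to 3 and at 49.5, 46.0 and 45.1 CPM in ControlKD replicates 1 to 3 (edgeR adjusted p = 0.455). Mkl2, an actin-regulated partner, was at 43.3, 57.7 and 67.3 CPM in PauparKD and at 60.4, 65.2 and 72.2 CPM in ControlKD (edgeR adjusted p = 0.456). For both, PauparKD replicate 1 was the lowest library and replicate 3 was within the control range.

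Of 26 other serum-responsive immediate-early genes, 21 were tested, 11 with positive and 10 with negative log2 fold changes (median 0.01). Csrnp1, a nuclear protein gene, was at 5.72, 4.65 and 6.01 CPM in PauparKD replicates 1 to 3 and at 3.41, 3.32 and 3.67 CPM in ControlKD replicates 1 to 3 (edgeR adjusted p = 0.147). Btg1, the closest relative of Btg2, was at 60.9, 86.0 and 74.7 CPM in PauparKD and at 96.6, 93.9 and 93.2 CPM in ControlKD (edgeR adjusted p = 0.230). This list's median difference (log2) from the mean of the controls was 0.00, 0.11 and 0.08 in PauparKD replicates 1 to 3, beside -0.53, -0.14 and 0.26 for the 10 genes described above.

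Of 24 kinases upstream of AP-1 and SRF, all 24 were tested, 11 with positive and 13 with negative log2 fold changes (median -0.03). Map2k3, a p38-activating kinase gene, was at 42.8, 34.6 and 31.4 CPM in PauparKD replicates 1 to 3 and at 26.7, 26.2 and 26.0 CPM in ControlKD replicates 1 to 3 (edgeR adjusted p = 0.161). Rps6ka2, a ribosomal S6 kinase gene acting below ERK, was at 244, 196 and 185 CPM in PauparKD and at 154, 159 and 166 CPM in ControlKD (edgeR adjusted p = 0.185). Both were above every control in all 3 PauparKD libraries, as were 13.7% of all tested genes. For these 2 genes it follows in part from their choice by smallest p. Of 13 cytoskeletal targets of SRF and MRTF, 10 were tested, 6 with positive and 4 with negative log2 fold changes (median 0.05). Zyx, a focal adhesion gene, was at 47.9, 43.2 and 51.9 CPM in PauparKD and at 62.4, 59.4 and 62.4 CPM in ControlKD (edgeR adjusted p = 0.155). Tagln2, an actin-binding protein gene, was at 272, 235 and 211 CPM in PauparKD and at 199.6, 189 and 179.7 CPM in ControlKD (edgeR adjusted p = 0.214).

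The genes most like the immediate-early genes in pattern were found by Pearson correlation of log2 CPM over the 6 libraries, among tested genes with a mean of at least 5 CPM. Egr1 was followed most closely by Kctd6 (r = 0.999), Dhx57 (r = 0.996) and Galntl4 (r = 0.996) of 10681 candidates. Kctd6 was at 12.7, 12.6 and 15.7 CPM in PauparKD replicates 1 to 3 and at 15.9, 15.8 and 15.0 CPM in ControlKD replicates 1 to 3, low in the same 2 libraries as Egr1 over a far smaller range. Fos was followed by Fbxl14 (r = 0.991), Tor1a (r = 0.991) and Sipa1l2 (r = 0.988), and the mean profile of the 10 by Maml1 (r = 0.994), Ubxn8 (r = 0.993) and Fbxo22 (r = 0.991). These values are a description over 6 libraries that share depth and group, picked as the highest among all candidates.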

How the data were processed

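The authors deposited raw read counts per gene symbol, 1 table per library, with no normalization. The build was mm9 and the tools named are CASAVA 1.8.2, HISAT2, HTSeq and DESeq2, per the submitters' processing notes. What each tool did, which strand was counted and over which annotation is not given in the sources used here. Per the labels' protocols, libraries were made from total RNA with a TruSeq kit.

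From these counts, edgeR 4.0.16 in R 4.3.3 was run over the whole table: filterByExpr (minimum count 10, smallest group 3), TMM factors, the robust quasi-likelihood test and Benjamini-Hochberg adjustment over all 13039 tested genes at 0.05. The standard error is the size of the log2 fold change divided by the square root of F. CPM uses the TMM factors, and log2 CPM a prior count of 2. Alternatives were RLE and upper-quartile factors, library size alone, no filter, a mean CPM of at least 1, DESeq2 1.42.0, limma-voom (limma 3.58.1), no robust estimation, a replicate block and leaving out each library. Counts were simulated for 12912 genes with the dispersion trend of this comparison. On them edgeR recovered 36 of 67 genes changed by 1.5-fold, 55 of 67 by 2-fold and 65 of 66 by 4-fold, with 10 false calls. The simulation gave both groups the same dispersion, whereas 84.6% of tested genes had a larger SD of log2 CPM in PauparKD. Recovery of genes as spread as Egr1 or Atf3 in PauparKD was not measured.

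No libraries agreed within sampling noise. The genes and pathway lists were chosen with earlier results of these data known. The named genes are the 10 genes, the 2 genes of each pathway list with the smallest p, and the 3 closest in pattern. Gene positions, exon lengths and CArG boxes come from GENCODE M1 on NCBIM37, which is mm9, and promoter windows from RefSeq on GRCm38.p6, which held 8 of the 10 genes.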

Additional observations from a re-analysis of the deposited data

How the results depend on the processing

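Against 5 higher and 1 lower genes over the whole table, edgeR called 1 and 0 with a replicate block, 2 and 0 when a mean of 1 CPM was required, 36 and 24 with no filter on low counts and 3 and 0 with upper-quartile factors, and DESeq2 called 262 and 220; the cause was not tested. With a single library removed, edgeR called 0 to 611 higher and 0 to 745 lower genes. The counts were 123 and 128 without PauparKD replicate 1, 611 and 745 without PauparKD replicate 3, and 0 and 0 without PauparKD replicate 2 or any single ControlKD library. Of the 10 immediate-early genes, 0 were called higher under any alternative, and 0 to 2 were called lower with 1 library left out: Egr1 and Fos, without PauparKD replicate 3. In the 9 alternatives that kept all 6 libraries, all 90 fold changes of the 10 genes kept their direction and 0 were called. With 1 library left out, 51 of 60 kept it. The 9 reversals were of Fos (-0.62 to 0.059 over the 6 fits), Fosb (-0.45 to 0.064), Junb (-0.069 to 0.32), Jund (-0.33 to 0.11), Atf3 (-0.61 to 0.21) and Btg2 (-0.013 to 0.12), none of them called with the reversed sign. Replicate numbers are shared by the groups, but libraries with the same number did not deviate together from their group means (correlations of 0.07, -0.01 and 0.01), and the replicate block left 0 of the 10 genes called, with Egr1 at -1.27. Fosb, at 38 counts in 1 library, has the coarsest values.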

Other observations

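Of the pathway genes listed, 16 had too few reads to be tested. Egr4, a relative of Egr1, was at 1.06, 0.587 and 0.386 CPM in PauparKD replicates 1 to 3 and at 0.177, 0.383 and 0.244 CPM in ControlKD replicates 1 to 3. It was among the genes with too few reads to be tested, and its pattern was not compared with that of Egr1. Egr2 and Egr3 stayed at 0.257 CPM or less in every library. Cyr61, which serum strongly induces in fibroblasts, was at 0 in all 6 libraries. Batf, an AP-1 partner of lymphoid cells, was also at 0 in all 6.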
